A study of Musca domestica with 4 samples.

Results

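The 10 predicted genes described here are contigs of the house fly (Musca domestica) transcriptome whose coding regions match the Pfam domains myosin head (motor domain) or myosin tail, 10 of the 6159 predicted genes in all. They were chosen from the genes that the study lists as higher in the resistant strain ALHF than in both susceptible strains, as the myosin contigs of that list with low counts. The values that chose them are therefore their counts in ALHF against aabys and CS, and every ratio of ALHF to a strain below is a description with no test. The ratio of aabys to CS did not enter the choice and is tested. Head domains were assigned to ALHF_02436.g1413, ALHF_10849.g6039 and ALHF_10850.g6040. Tail domains were assigned to ALHF_02437.g1414, ALHF_02438.g1415, ALHF_03077.g1871, ALHF_10851.g6041, ALHF_10852.g6042, ALHF_10853.g6043 and ALHF_10854.g6044. Of these, 3 carry neighbouring numbers (ALHF_02436 to ALHF_02438, called run A), 6 carry neighbouring numbers further on (ALHF_10849 to ALHF_10854, called run B), and ALHF_03077.g1871 stands alone.

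RNA-Seq was made from pools of whole adult females, 3 days old, with 2 libraries of ALHF from separate fly samples and 1 library each of aabys and CS. ALHF is a strain with high resistance to pyrethroids and other insecticides, held under permethrin selection. The strain aabys is susceptible and carries a recessive visible marker on each autosome, and CS is a susceptible wild type kept in the laboratory. The reference was assembled from the pooled reads of both ALHF libraries, so that reads of aabys and CS were counted against ALHF sequence, and the labels and methods give no common genetic background for the 3 strains.

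Myosins are actin-based motors. The head binds actin and ATP and makes the stroke, whereas the tail of many classes pairs as a coiled coil and sets what the motor assembles with or carries. In Drosophila melanogaster, muscle myosin heavy chain (Mhc) builds the thick filaments of muscle, and the separate gene Mhcl encodes a myosin of class XVIII, an unconventional heavy chain. The study's annotation places ALHF_02436.g1413, ALHF_02437.g1414 and ALHF_02438.g1415 closest to Mhcl of Drosophila. For the other 7 contigs only the Pfam domain was at hand, and the deposited table gives no position in a genome and no sequence.

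Estimated counts summed to between 5523826 and 15085758 per library over all genes, with ALHF replicate 2 the shallowest. The filter on low counts kept 6070 genes, all 10 contigs among them. After TMM normalization edgeR's quasi-likelihood test called no gene at an adjusted p under 0.05 in any comparison, which is 0% of 6070 for ALHF over aabys, for ALHF over CS and for aabys over CS. Without adjustment, 1062, 2558 and 568 genes had a p under 0.05. DESeq2's Wald test made 619, 2013 and 198 calls, whereas limma made 0 in each. The count of 0 from edgeR depends on the scaling for the ALHF comparisons. With DESeq2's size factors, library size alone and upper-quartile factors the same test called 32, 22 and 25 genes for ALHF over aabys, 1015, 1654 and 875 for ALHF over CS, and 0 each time for aabys over CS. Among the calls for ALHF over CS were the 3 contigs of run A under each of these scalings, a contrast that chose them. The spread comes from the ALHF pair alone, and the single aabys and CS libraries are assumed to vary alike. Muscle markers differed widely between the libraries. The 16 tropomyosin, troponin, myosin light chain, Mhc and paramyosin contigs summed to 125900 and 91610 CPM (counts scaled to the TMM-normalized library size) in the ALHF replicates, 8693 CPM in aabys and 3203 CPM in CS, with 1 value at 0. In whole flies, fewer cells of a type and less RNA per cell cannot be told apart, and the part of this difference in the values below was not tested.

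The coding lengths of the 9 neighbouring contigs fell on a regular grid. In run A the head contig ALHF_02436.g1413 was 5376 nt long, and the tail contigs ALHF_02437.g1414 and ALHF_02438.g1415 were 3348 and 3231 nt long. The head was thus 2145 nt longer than the shorter tail, or 715 codons, and the tails were 39 codons apart. In run B the contigs ALHF_10850.g6040 (head), ALHF_10853.g6043 and ALHF_10854.g6044 (tails) were 5385, 3357 and 3240 nt long, each 3 codons longer than its counterpart in run A. The contigs ALHF_10849.g6039 (head), ALHF_10851.g6041 and ALHF_10852.g6042 (tails) were 5502, 3474 and 3357 nt long, each another 39 codons longer. All 9 lengths were multiples of 3, as the length of any complete coding region is. Each set of 3 thus held a head form, a longer tail form and a shorter tail form. ALHF_10852.g6042 and ALHF_10853.g6043 had the same length, and they were put in their sets by their counts, as given below. Such steps were uncommon elsewhere in the table. They were read from these contigs themselves, and the other pairs were not limited to contigs of the same gene. The counts are thus a description and no test. Among 17381 pairs of other contigs within 5 numbers of each other, 38 pairs (0.219%) differed by 3 codons, 34 (0.196%) by 39 codons and 4 (0.0230%) by 715 codons. ALHF_03077.g1871 was 1437 nt long and had no counterpart in the grid. Contigs of such lengths may share sequence, and RSEM divides reads that match several contigs by estimate, so that the sum over a run is a firmer value than the split within it.

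**Figure D1:**
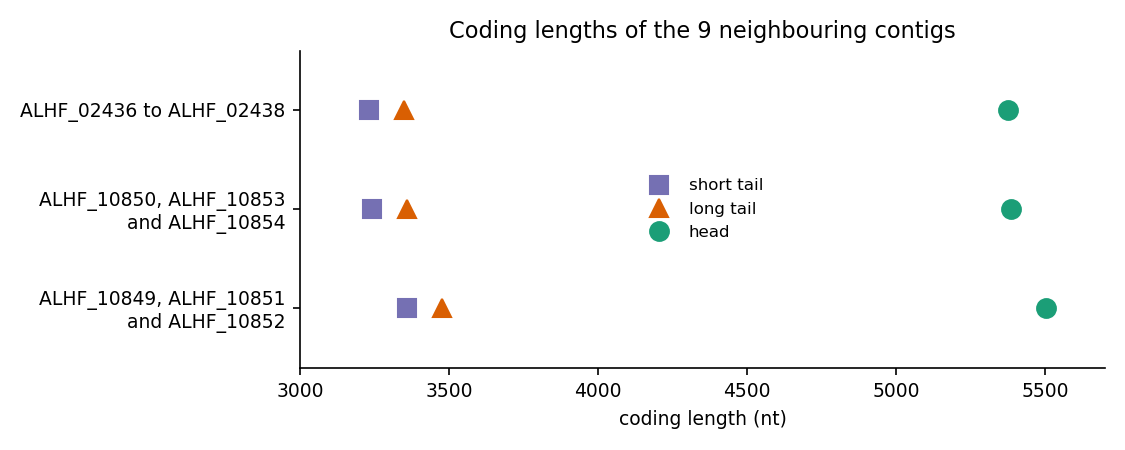
Coding length in nt (x axis) of the head, longer tail and shorter tail contigs in the 3 sets of neighbouring contigs (rows). The symbols of a row keep the same spacing, with 39 codons between the tails and 715 codons from the shorter tail to the head.

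The contigs of run A had their highest levels in both ALHF libraries and their lowest in CS. The head contig ALHF_02436.g1413 had 693 and 250 counts in ALHF replicates 1 and 2, 475 in aabys and 159 in CS, or 84.0, 52.9, 28.0 and 10.04 CPM. The longer tail contig ALHF_02437.g1414 had 530 and 186 counts in ALHF, 197 in aabys and 36 in CS, or 64.2, 39.3, 11.6 and 2.27 CPM. For the shorter tail contig ALHF_02438.g1415, the most abundant of the 10, the counts were 1296 and 824 in ALHF, 456 in aabys and 97 in CS, or 157, 174.2, 26.9 and 6.13 CPM. In each of these contigs both ALHF libraries lay above aabys, and aabys lay above CS. The fitted log2 ratio of ALHF to aabys was 1.29 (standard error 0.54) for ALHF_02436.g1413, 2.16 (0.61) for ALHF_02437.g1414 and 2.62 (0.49) for ALHF_02438.g1415. Against CS the log2 ratios were 2.77 (0.59), 4.50 (0.71) and 4.75 (0.56) in the same order of contigs. In both comparisons, which share the ALHF libraries, the head contig thus had the smallest ratio of the 3.

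Summed over run A, the level was 305.2 and 266.4 CPM in ALHF, 66.5 CPM in aabys and 18.4 CPM in CS. The mean in ALHF was 286 ± 27.5 CPM (SD, n = 2), and the fitted log2 ratio was 2.10 (standard error 0.48) to aabys and 3.95 (0.53) to CS. The ALHF replicates differed by 0.20 on the log2 scale in this sum, a gap smaller than in most genes, since 23.4% of all genes tested had a smaller one.

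In run B the 6 contigs fell apart by which libraries held counts. The contigs ALHF_10850.g6040, ALHF_10853.g6043 and ALHF_10854.g6044, called the zero set, were at 0 in ALHF replicate 2 and in CS, and had counts in ALHF replicate 1 and in aabys. The head contig ALHF_10850.g6040 had 375 and 0 counts in ALHF replicates 1 and 2, 210 in aabys and 0 in CS. The longer tail contig ALHF_10853.g6043 had 215 and 0 in ALHF, 55 in aabys and 0 in CS, and the shorter tail contig ALHF_10854.g6044 had 512 and 0 in ALHF, 121 in aabys and 0 in CS. The split thus ran through the pair of ALHF libraries and not between ALHF and the susceptible strains. Together the zero set held 1102 of the 2620 counts of run B in ALHF replicate 1 (42.1%, exact Clopper-Pearson 95% interval 40.2 to 44.0) and 386 of 944 in aabys (40.9%, 37.7 to 44.1). In ALHF replicate 2 it held 0 of 446 counts, which allows a share of up to 0.673% by a limit of 3 counts, and in CS 0 of 617, which allows up to 0.486% by the same limit. Both limits lie far below the shares in ALHF replicate 1 and aabys. These intervals and limits cover counting error only, and not the division of reads between contigs. An exact 0 in an estimated count can also be an estimate that gave all shared reads to another contig, and which of these applies was not tested.

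The same pattern was counted among all genes. It was taken from the zero set, whose lowest count other than 0 was 55. The zero set thus meets it by construction, and its contigs are no support for the split. At 0 in ALHF replicate 2 and CS and at 50 counts or more in both other libraries there were 5 genes of 6159 (0.0812%), 3 of them the zero set and the others ALHF_00432.g227 and ALHF_11334.g6313, which were found by this search after their values were seen. The reverse pattern, at 0 in ALHF replicate 1 and aabys, was met by 2 genes. For the pairs ALHF replicate 1 and CS, or ALHF replicate 2 and aabys, at 0 there were 1 and 2 genes, and at 0 in both aabys and CS, a split by strain, there were 15.

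The other 3 contigs of run B, called the detected set, had counts in every library. ALHF_10849.g6039, the head contig, had 526 and 146 counts in ALHF, 291 in aabys and 341 in CS, or 63.7, 30.9, 17.2 and 21.5 CPM. ALHF_10851.g6041, the longer tail contig, had 305 and 63 counts in ALHF, 84 in aabys and 78 in CS, or 37.0, 13.3, 4.95 and 4.93 CPM. ALHF_10852.g6042, the shorter tail contig, had 687 and 237 counts in ALHF, 183 in aabys and 198 in CS, or 83.2, 50.1, 10.8 and 12.5 CPM. Both ALHF libraries lay above both strains in each of these contigs, as in run A, but aabys and CS lay close to each other. The log2 ratio of ALHF to aabys was 1.46 (standard error 0.67), 2.34 (0.95) and 2.63 (0.61), and to CS it was 1.14 (0.66), 2.35 (0.95) and 2.42 (0.60), for the head, the longer tail and the shorter tail. The head form again had the smallest ratio of its set in both comparisons. For the zero set the log2 ratios to aabys had standard errors from 2.56 to 2.81, because ALHF replicate 2 was at 0, and no ratio is read from them. Against a floor of 3 counts in CS, the mean of ALHF was at least 120-fold higher for ALHF_10850.g6040, at least 68.8-fold higher for ALHF_10853.g6043 and at least 164-fold higher for ALHF_10854.g6044. These means rest on ALHF replicate 1 alone, since replicate 2 was at 0 as CS was. No ratio of ALHF to CS is therefore read from them either. In ALHF replicate 2 the same contigs lay below aabys, which was at least 19.5-fold, 5.12-fold and 11.2-fold higher than that library against its floor of 3 counts.

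**Figure D2:**
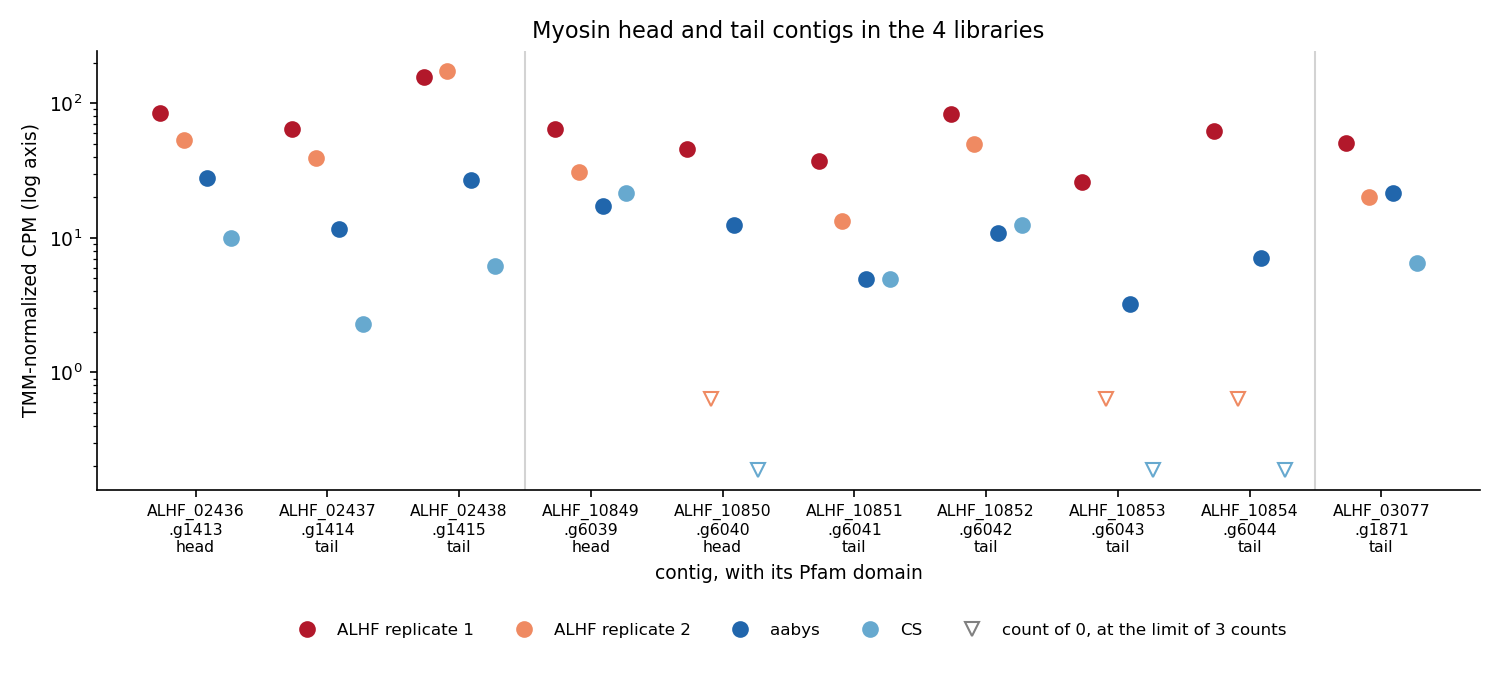
TMM-normalized CPM (y axis, log scale) of each contig in ALHF replicate 1, ALHF replicate 2, aabys and CS, with a count of 0 drawn as an open triangle at the level of 3 counts. The open triangles are at ALHF replicate 2 and CS in ALHF_10850.g6040, ALHF_10853.g6043 and ALHF_10854.g6044.

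Where both sets of run B were present, they kept nearly the same proportion in each form. The detected set over the zero set was 1.40 in the head, 1.42 in the longer tail and 1.34 in the shorter tail in ALHF replicate 1. In aabys it was 1.39, 1.53 and 1.51 for these forms. The estimated counts of the 3 forms were thus divided between the sets in like proportions within a library, to within these differences. The part of RSEM's division of shared reads in these proportions was not tested.

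The sum over run B varied more between the ALHF replicates than that over run A. It was 317 and 94.3 CPM in ALHF (mean 206 ± 158, SD, n = 2), 55.7 CPM in aabys and 39.0 CPM in CS. The replicates differed by 1.75 on the log2 scale, and 93.4% of all genes tested had a smaller gap. Without the zero set the gap was 0.96, with 183.9 and 94.3 CPM in ALHF, 32.9 CPM in aabys and 39.0 CPM in CS, a split of the run chosen after seeing the data. The fitted log2 ratio of run B was 1.89 (standard error 0.91) to aabys and 2.40 (0.94) to CS. From ALHF replicate 2 alone these were 0.76 and 1.28, and from ALHF replicate 1 alone 2.51 and 3.03. The size of the run B ratios thus rests largely on ALHF replicate 1, while those of run A were 2.0 and 3.85 from replicate 2 alone.

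**Figure D3:**
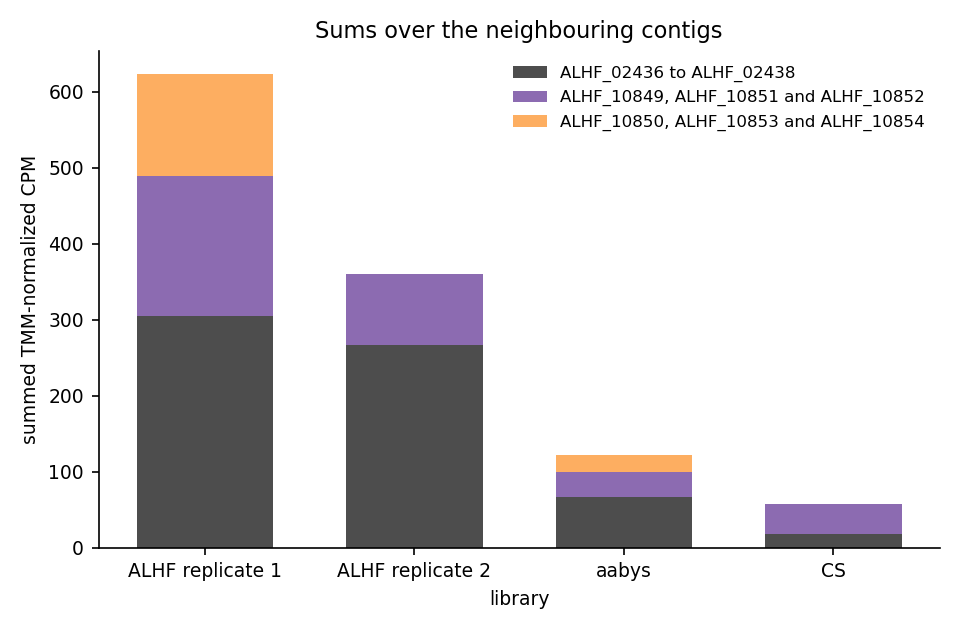
Summed TMM-normalized CPM (y axis) of run A (bottom, grey), the detected set of run B (middle, purple) and the zero set of run B (top, orange) in each library (x axis). Run A reached 305.2 and 266.4 CPM in the ALHF replicates, against 66.5 in aabys and 18.4 in CS, and the zero set is present in ALHF replicate 1 and aabys alone.

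Over all 9 contigs, a sum chosen after seeing the data, the level was 623 and 361 CPM in ALHF, 122 CPM in aabys and 57.4 CPM in CS. Run A held 49.0% and 73.9% of these counts in ALHF replicates 1 and 2, 54.4% in aabys and 32.1% in CS. CS was thus the library in which run B made up most of the counts, and ALHF replicate 2 the one in which it made up the least.

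ALHF_03077.g1871, the single tail contig, followed a different order. It had 418 and 95 counts in ALHF, 364 in aabys and 103 in CS, or 50.7, 20.1, 21.5 and 6.50 CPM. ALHF replicate 2 and aabys were level, so that ALHF and aabys overlapped, while all 3 lay above CS. The log2 ratio was 0.72 (standard error 0.76) to aabys and 2.44 (0.84) to CS, and from ALHF replicate 2 alone the ratio to aabys was -0.10. It is also the contig with the highest level per coding length in both susceptible strains, at 14.9 CPM per kb in aabys and 4.53 CPM per kb in CS.

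Over the 10 contigs, 8 were at least 2-fold higher in the mean of ALHF than in both strains, where 21.7% of the 6070 genes tested were. ALHF_03077.g1871 and ALHF_10850.g6040 were the exceptions. Both ALHF libraries lay above both strains in 6 contigs, beside 34% of all genes, and ALHF replicate 2 by itself lay above both strains in the same number, beside 41% of all genes. Since the contigs were chosen by this contrast, nothing is read from these counts. From ALHF replicate 2 alone 4 contigs were 2-fold higher than both strains, and from ALHF replicate 1 alone 10 were. No share of all genes stands beside these single-library counts, and nothing is read from them either. Over the 7 contigs with counts in every library, the median log2 ratio was 2.16 to aabys and 2.44 to CS, beside -0.02 and 0.10 for all genes tested. Over all 10 it was 2.07 to aabys, a value set by ALHF_10853.g6043 and ALHF_10854.g6044 with their large errors, and 3.64 to CS with contigs at 0 there at their lower bound.

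**Figure D4:**
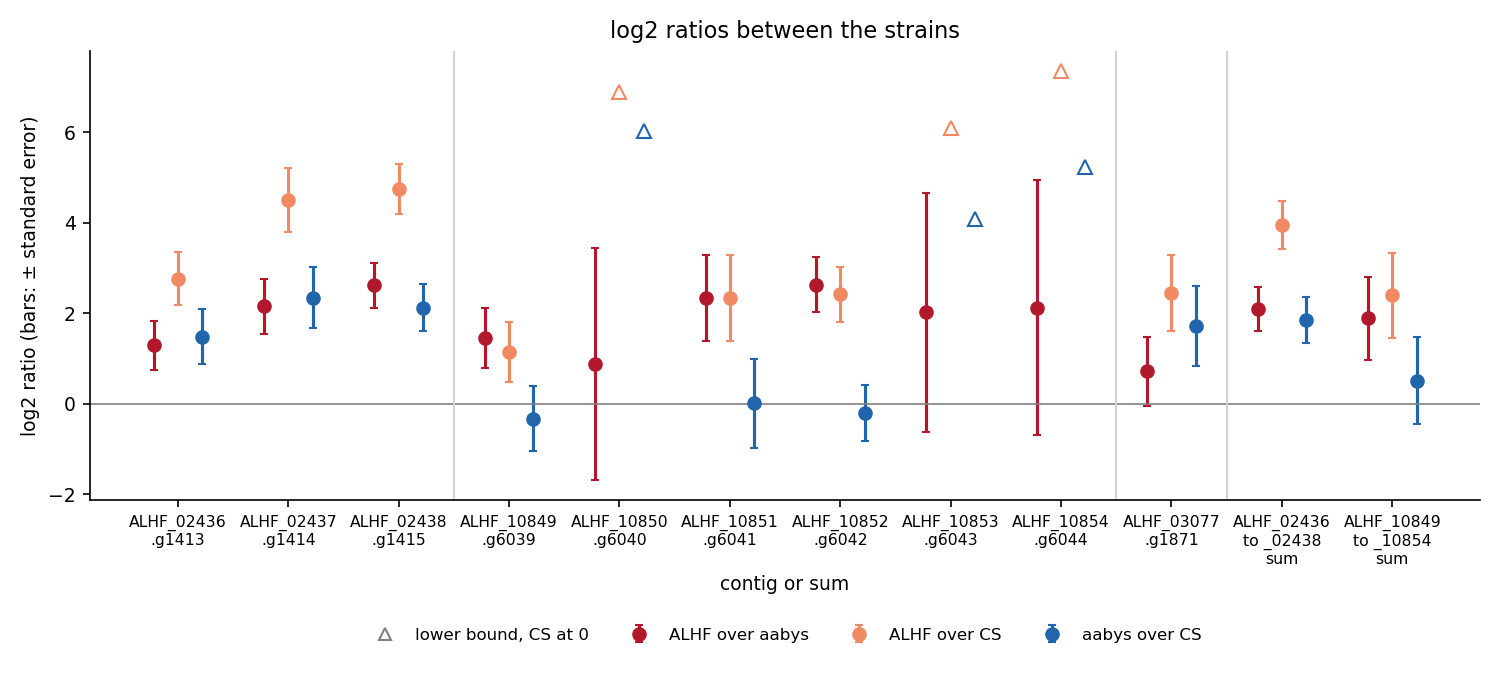
Fitted log2 ratios with standard errors (y axis) of ALHF over aabys, ALHF over CS and aabys over CS for the 10 contigs and the sums of both runs (x axis), with open triangles for lower bounds where CS was at 0. For ALHF over CS these bounds rest on ALHF replicate 1 alone, as replicate 2 was at 0. The contigs of run A differ between aabys and CS by 1.48 to 2.35, and those of the detected set of run B by -0.33 to 0.01.

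Between the susceptible strains, aabys lay above CS in run A and close to CS in the detected set of run B, and edgeR called no difference. In aabys, run A was 66.5 CPM against 18.4 CPM in CS, a log2 ratio of 1.85 (standard error 0.51, adjusted p = 0.482 by edgeR's quasi-likelihood test over all genes). For the contigs of run A the log2 ratios of aabys to CS were 1.48 (0.61) for ALHF_02436.g1413, 2.35 (0.68) for ALHF_02437.g1414 and 2.13 (0.52) for ALHF_02438.g1415, with adjusted p of 0.517, 0.488 and 0.465 by the same edgeR test. None of these passed the threshold. For the detected set the log2 ratios of aabys to CS were -0.33 (0.72) for ALHF_10849.g6039, 0.01 (0.98) for ALHF_10851.g6041 and -0.21 (0.62) for ALHF_10852.g6042, and these errors leave room for 2-fold differences either way. The contigs of the zero set, whose counts of 0 define it, were at least 65.4-fold, 17.1-fold and 37.7-fold higher in aabys than in CS for ALHF_10850.g6040, ALHF_10853.g6043 and ALHF_10854.g6044, against the floor of 3 counts in CS. The edgeR test gave them adjusted p of 0.526, 0.547 and 0.541. DESeq2 called ALHF_10850.g6040 (adjusted p = 0.0338) and ALHF_10854.g6044 (0.0465), whereas limma called no contig. Each strain has 1 library here, and these contigs passed the filter through the libraries that hold them, so nothing is read from these calls. The sum over run B was 55.7 CPM in aabys and 39.0 CPM in CS, a log2 ratio of 0.51 (0.96, adjusted p = 0.802 by edgeR). ALHF_03077.g1871 had a log2 ratio of 1.72 (0.88, adjusted p = 0.527 by edgeR).

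At least 2-fold higher levels in aabys than in CS were found for 7 of the 10 contigs, beside 23.8% of all genes tested. They were the 3 contigs of run A, the 3 of the zero set and ALHF_03077.g1871. The 3 contigs of the zero set are defined by their counts of 0 in CS, so they meet this rule by construction. Contigs of a run may share reads and are not independent. Nothing is thus read from this count. The median log2 ratio of aabys to CS over the 10 contigs was 1.93, with CS at its floor where it was 0. It includes the zero set, so nothing is read from it. Over the 7 contigs with counts in every library the median was 1.48, beside 0.00 for all genes. The muscle markers moved the same way, with a median of 1.69 over 16 contigs, 12 of them at least 2-fold higher in aabys, and their part in these ratios was not tested.

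The balance between head and tail contigs differed between ALHF and the susceptible strains in both runs. In run A the head contig took 27.5% of the counts in ALHF replicate 1 (exact 95% interval 25.8 to 29.3) and 19.8% in replicate 2 (17.7 to 22.2), against 42.1% in aabys (39.2 to 45.1) and 54.5% in CS (48.6 to 60.3). In run B the head contigs took 34.4% in ALHF replicate 1 (32.6 to 36.2) and 32.7% in replicate 2 (28.4 to 37.3), against 53.1% in aabys (49.8 to 56.3) and 55.3% in CS (51.3 to 59.2). Both ALHF libraries thus lay below both strains in either run, with intervals that do not overlap. In run A and the detected set this restates the smaller head ratios above. It comes from the contrast that chose the contigs, so nothing further is read from it. These intervals cover counting error only. They cover neither the spread between flies of a strain nor the division of reads between head and tail contigs. In run A the intervals of aabys and CS do not overlap either. A share within a library does not depend on the scaling between libraries. With 2 libraries of ALHF and 1 of each strain an exact two-sided permutation test over libraries cannot give a p below 0.333, so no test is given. Within ALHF the replicates differed from each other in run A by more than their intervals, and in run B by less. The same order held in each set of run B. In the detected set the head took 34.7% and 32.7% in ALHF, 52.2% in aabys and 55.3% in CS, and in the zero set it took 34.0% in ALHF replicate 1 and 54.4% in aabys. Per coding length the head share of run A was 18.7% and 13.0% in ALHF, 30.6% in aabys and 42.0% in CS, and that of run B was 24.3% and 23.0% in ALHF, 41.0% in aabys and 43.2% in CS. The order of the libraries was thus the same on both scales.

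Coding length moved with the libraries across all genes. For the 199 tested genes with a coding length of at least 5000 nt, the class that holds the heads, the median log2 ratio was 0.25 for ALHF over aabys and 1.09 for ALHF over CS. For the 212 genes between 3000 and 3600 nt, the class that holds the tails of both runs, it was -0.15 and -0.33. The medians also differed within ALHF, at 0.34 for the longer class and -0.06 for the shorter in replicate 1 over replicate 2. For aabys over CS they were 0.51 and -0.13. In run A and in the detected set of run B the head had a lower ratio than the tails. The part of coding length in these ratios and in the head shares was not tested.

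The longer tail form kept a like share of the tail counts in each set within a library. In ALHF replicate 1 it took 29.0% of the tail counts in run A (26.9 to 31.2), 30.7% in the detected set (27.9 to 33.7) and 29.6% in the zero set (26.3 to 33.0). In ALHF replicate 2 the share was 18.4% in run A (16.1 to 20.9) and 21.0% in the detected set (16.5 to 26.1). In aabys it was 30.2%, 31.5% and 31.3% for run A, the detected set and the zero set, and in CS it was 27.1% and 28.3% for run A and the detected set. Within each library these intervals overlap, but they cover counting error only and not the division of reads between contigs. ALHF replicate 2 had the lowest share of the longer tail in either set, while ALHF replicate 1 lay between CS and aabys in both.

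**Figure D5:**
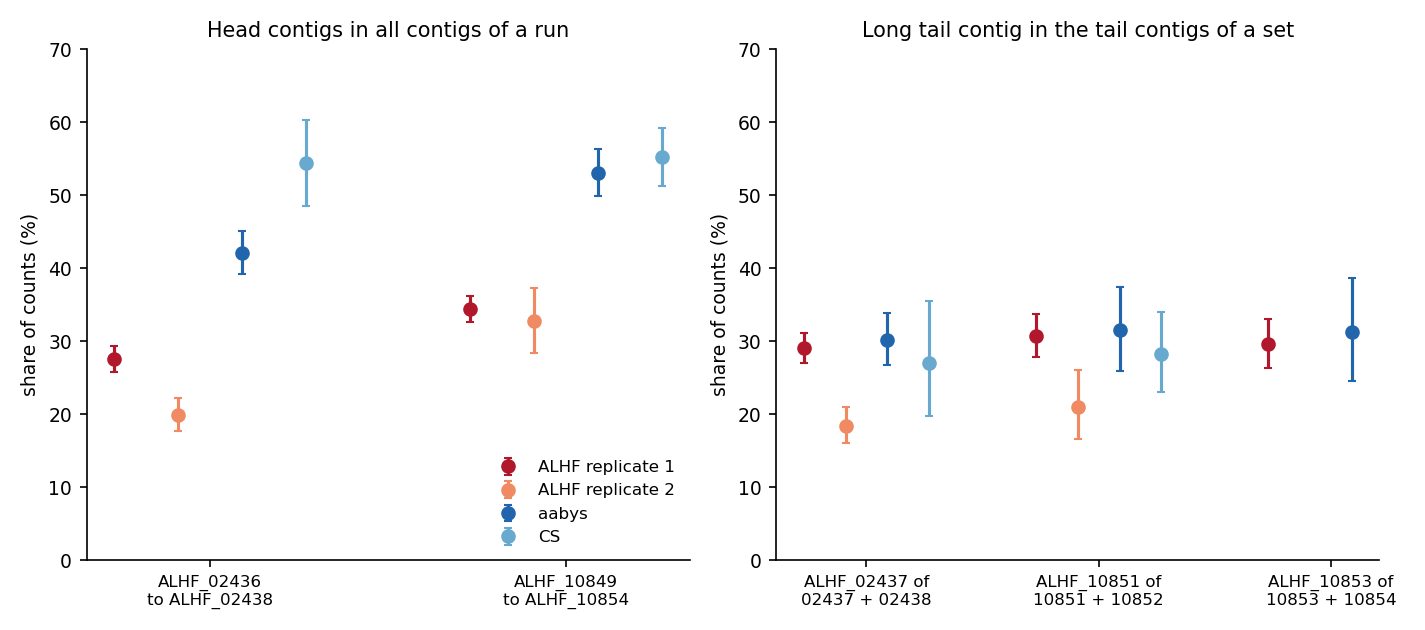
Share of counts in % (y axis) with exact 95% intervals, for the head contigs within each run (left) and for the longer tail contig within the tail contigs of each set (right), in ALHF replicate 1, ALHF replicate 2, aabys and CS. The head share lies between 19.8% and 34.4% in ALHF and between 42.1% and 55.3% in the strains, while the longer tail share is lowest in ALHF replicate 2.

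The word low applies to the contigs per coding length more than by count. In ALHF replicate 1 the counts ran from 215 to 1296 with a median of 519, and 8 of the 10 contigs were above the median of all genes tested, 374. Per kb of coding length their median was 17.4 CPM in ALHF replicate 1, beside 29.2 CPM for all genes, and 2 contigs were above that value. In ALHF replicate 2 the median was 7.72 CPM per kb, beside 30.0 for all genes, in aabys 3.17 beside 33.0 and in CS 1.64 beside 37.8. In aabys and in CS none of the 10 contigs reached the median of all genes on either scale. The contigs were chosen for low counts and as lower in these strains than in ALHF, so nothing is read from these levels. The choice has no sharp count limit: the highest count of any library was 693 for ALHF_02436.g1413 and 1296 for ALHF_02438.g1415 inside it, and 850 for ALHF_02627.g1537, 875 for ALHF_00347.g176 and 1031 for ALHF_00534.g299 outside it.

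The other 10 myosin contigs of the annotation did not move as 1 group. ALHF_02345.g1359, which the annotation also places closest to Mhcl, was 6339 nt long and had 107 and 104 CPM in ALHF, 114 CPM in aabys and 140.3 CPM in CS. Its log2 ratio was -0.11 (standard error 0.41, adjusted p = 0.904 by edgeR's quasi-likelihood test) to aabys and -0.41 (0.41, adjusted p = 0.465) to CS, with the ALHF replicates close to each other. The contig of Mhcl outside the runs was thus level across the libraries. Run A had a fitted log2 ratio of ALHF of 2.10 to aabys and 3.95 to CS. The contigs of run A were chosen as higher in ALHF than in both strains, so nothing is read from this contrast. ALHF_10855.g6045, the next number after run B and 1560 nt long, was named after its values were seen. It had 89.8 and 56.4 CPM in ALHF, 56.6 CPM in aabys and 11.2 CPM in CS. The number just before run A, ALHF_02435.g1412, had the opposite order, with 229.7 and 234.6 CPM in ALHF, 339.5 CPM in aabys and 714.1 CPM in CS. Neither of these neighbours is among the listed myosin contigs.

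Among the unconventional motors, ALHF_00326.g163 (jar, myosin VI, which walks to the pointed end of actin) had a log2 ratio to aabys of -0.42 (0.42), and one to CS of -0.53 (0.42). Both contigs closest to Myo10A, of class XV, had positive ratios, with ALHF_00347.g176 at 1.84 (0.76) and 1.59 (0.75) and ALHF_00534.g299 at 1.60 (0.63) and 1.48 (0.62), again to aabys and to CS. They resembled the detected set of run B in that aabys and CS were level, at -0.25 (0.80) and -0.12 (0.67) between aabys and CS. ALHF_00871.g480 (Myo61F, a membrane-linked myosin of class I) was level with aabys at 0.05 (0.50) and had 1.67 (0.54) to CS. ALHF_02627.g1537, closest to CG31638, had -0.78 (0.44) and -1.51 (0.44). ALHF_05296.g3631, known only by its head domain, had 1.11 (0.49) and 2.17 (0.52).

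The contigs of muscle myosin and paramyosin had the highest ratios among the listed contigs, and the study lists all 3 as changed in these libraries. ALHF_02955.g1774, closest to Mhc, had a log2 ratio to aabys of 4.06 (0.43), and one to CS of 5.88 (0.47), while ALHF_02956.g1775, also closest to Mhc, had 3.76 (0.47) and 4.51 (0.49). ALHF_02771.g1633 (paramyosin, of the thick filament core) had 2.49 (0.35) and 3.86 (0.38). Per kb of coding length ALHF_02955.g1774 had 11300 and 7394 CPM in ALHF, 561 CPM in aabys and 159 CPM in CS, while run A summed to 83.4 and 75.5 CPM per kb in ALHF, 17.0 in aabys and 4.44 in CS. With TMM the edgeR test called none of the 10 contigs in any comparison. With DESeq2's size factors it called ALHF_02955.g1774 and ALHF_02956.g1775 for ALHF over aabys, and both of these and ALHF_02771.g1633 for ALHF over CS. With library size alone or upper-quartile factors ALHF_02955.g1774 was the only call of the list for ALHF over aabys, while all 3 were called for ALHF over CS, with ALHF_02627.g1537 added under library size alone. Over the list, ALHF exceeded aabys by 2-fold or more in 6 of 10 and lay below it by as much in 0, with a median log2 ratio of 1.35, and 7 and 1 against CS, with a median of 1.63. For all genes tested the upper quartile was 0.92 to aabys and 1.85 to CS. The list drew partly on the study's changed genes, so nothing is read from these counts. Of the 8 kinesin and dynein contigs, motors of microtubules, ALHF exceeded aabys by 2-fold or more in 2 and lay below it by as much in 2, with a median of -0.12, and 2 and 4 against CS, with a median of -0.67. No kinesin or dynein contig was called with TMM, and under the other scalings up to 3 were called for ALHF over CS.

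Muscle markers had the same direction as the 10 contigs, and none of the 16 passed the edgeR test with TMM, while under each other scaling 14 did for ALHF over CS and 2 to 5 for ALHF over aabys. In ALHF 15 were at least 2-fold higher than in aabys, with a median log2 ratio of 3.22, and 15 than in CS, with a median of 4.83. The upper quartile of all genes tested was 0.92 to aabys and 1.85 to CS. Several of the 16 share a gene annotation, and the lists drew partly on the study's changed genes. Nothing is thus read from these counts. The order of their summed levels, with ALHF above aabys and aabys above CS, is that of the sums over run A, over run B and over the 9 contigs. In the detected set of run B, a split chosen after seeing the data, CS was level with aabys. Whether the contigs of either run follow the amount of muscle in the flies was not tested.

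The genes outside the 10 whose profile over the 4 libraries was most like each run were found by Euclidean distance between centred log2 values (CPM plus 0.5). For run A they were ALHF_00869.g479, annotated with a SET domain, at 83.1 and 71.0 CPM in ALHF, 17.7 in aabys and 4.67 in CS, ALHF_04487.g2975 and ALHF_11826.g6647. Their distances were 0.0231, 0.163 and 0.216. For run B the nearest was ALHF_07655.g4902, at a distance of 0.258, followed by ALHF_04857.g3291 at 0.267 and ALHF_08259.g5198 at 0.271. ALHF_03077.g1871 was closest to ALHF_11603.g6501, which had 51.2 and 19.5 CPM in ALHF, 20.7 in aabys and 6.76 in CS, at a distance of 0.0858. ALHF_04764.g3209 at 0.159 and ALHF_03897.g2487 at 0.188 came next. With 4 libraries many genes share a profile, and 35 lay within 0.5 of run A, 25 within 0.5 of run B and 76 within 0.5 of ALHF_03077.g1871.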

How the data were processed

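The authors filtered the read pairs, assembled the ALHF reads, predicted coding regions and ran RSEM on them for each library; an RSEM version is not given in the sources. They deposited 1 table of coding lengths and 4 values per gene. The header names FPKM, but the deposited values are whole numbers, rise with length (Spearman's rho 0.338 to 0.406 across genes) and, times kb, sum to at least 12122668 per library, so they were taken as estimated counts, rounded and not normalized. All 4 libraries were fitted with edgeR 4.0.16 (TMM, filterByExpr, glmQLFit, glmQLFTest) in R 4.3.3, on the contigs and on the table with each run summed, with Benjamini-Hochberg adjustment over all genes and a threshold of 0.05. The common dispersion was 0.196. The code was tested on simulated data with 200 changed genes. These were drawn with a smaller dispersion than that of the libraries, so the simulation does not bear on the power of the test here. Alternatives used DESeq2 1.42.0, limma 3.58.1 on log2 of CPM plus 1, other scalings, no filter, and each ALHF library left out. Shares and tables used Python 3.11.15, scipy 1.17.1 and pandas 2.3.3. Named genes were the 10 contigs, the other myosin contigs and the 3 genes nearest in profile to each run and to ALHF_03077.g1871. The contigs and lists were chosen with earlier results of these data known. The lists come from an annotation read for its first 1689 genes and from the study's list of changed genes. They are thus not complete and favour genes that the study found changed in ALHF. The study's list of changed genes thus bears on which contigs are described, and no value of its comparisons was used.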

Additional observations from a re-analysis of the deposited data

How the results depend on the processing

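The ratios of both runs and of the 9 contigs kept their sign under DESeq2's size factors, upper-quartile factors, library size alone, no filter, DESeq2 and limma. Of the single contigs, ALHF_10850.g6040 and ALHF_10854.g6044 turned to -0.97 and -0.04 over aabys with limma, and ALHF_10851.g6041, at 0.01 for aabys over CS, to -0.04 with DESeq2 and its size factors and -0.17 with library size alone. With library size alone the median of all genes was -0.44, -0.51 and -0.18 on the log2 scale for ALHF over aabys, ALHF over CS and aabys over CS, beside -0.02, 0.10 and 0.00 with TMM, and upper-quartile factors put the last 2 at 0.26 and 0.11. With library size alone the log2 ratio of run A was 1.67 to aabys and 3.35 to CS, and that of the 9 contigs to CS was 2.48. With upper-quartile factors run A was at 4.12 to CS. Leaving out either ALHF library gave 2.0 to 2.20 for run A over aabys, 3.85 to 4.05 for run A over CS, 0.76 to 2.51 for run B over aabys, 1.28 to 3.03 for run B over CS, 1.56 to 2.35 for the 9 contigs over aabys and 2.65 to 3.44 over CS. The median of the contigs ran from 0.88 to 2.51 over aabys and from 2.0 to 3.87 over CS, and the count at least 2-fold higher than both strains from 4 to 10. The lower value of each range came without replicate 1. The count has no share of all genes beside it for a single ALHF library, and nothing is read from it. Shares per coding length moved the head share of run A to 18.7% and 13.0% in ALHF, 30.6% in aabys and 42.0% in CS, and that of run B to 24.3% and 23.0% in ALHF, 41.0% in aabys and 43.2% in CS, with the same order. For aabys over CS, the adjusted p of run A ranged from 0.146 to 0.561, that of run B from 0.774 to 0.860 and that of the 9 contigs from 0.505 to 0.627 over the alternatives. No paired analysis was possible because only ALHF has more than 1 library. Values without an ALHF library have no spread behind them and carry no test. For the contigs one by one, the ratio to aabys without replicate 1 turned negative in the zero set (-4.29, -2.35 and -3.49 for ALHF_10850.g6040, ALHF_10853.g6043 and ALHF_10854.g6044 at the floor of 3 counts) and in ALHF_03077.g1871 (-0.10).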
